A study of Homo sapiens with 8 samples.

Results

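The *UCHL1* gene and its relatives *UCHL3* and *UCHL5* were followed across 4 HCT116 clones, a line of human colorectal cancer cells, before and after exposure to 5-aza-2'-deoxycytidine (5-aza-dC). All non-control probes that the array annotation assigns to these genes were taken, which gave 4 probes for 3 genes among 50599 distinct probes for 36337 gene names. *UCHL1* and *UCHL3* had 1 probe each and *UCHL5* had 2. *UCHL1* was selected on its signal in the control clones, where it was among the probes with the largest rise after 5-aza-dC. In addition, its probe passed the filter on dim signals only through the treated arrays. All values of *UCHL1*, in the control clones and in the *TET1* knockdown clones, are therefore given as a description without a test, and *UCHL3* and *UCHL5* were tested in all comparisons.

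CONT1 and CONT2 were control clones transfected with a plasmid for a negative-control miRNA, and TET1-KD1 and TET1-KD2 each stably expressed a different artificial miRNA against *TET1*, which encodes an enzyme that oxidizes 5-methylcytosine. Every clone was grown from a GFP-positive colony after G418 selection, so the antibiotic and the GFP vector were common to all. Each clone was analyzed without treatment and with 1 µM 5-aza-dC, a nucleoside analog that traps DNA methyltransferases, given for 72 h, and the drug was renewed together with the medium every day. Each of the 4 conditions therefore had 2 arrays from 2 clones (n = 2), and the spread within a condition is the spread between clones. The titles of the arrays were followed for the treatment, because a separate treatment field gives mock for all control arrays and the drug for all knockdown arrays.

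The arrays lay on 2 slides: slide 1 held 6 arrays and slide 2, scanned 230 days later, held the 2 treated control arrays, so 3 comparisons carry the slide. In the response of the control clones, slide and treatment cannot be told apart. Between treated knockdown and treated control clones, slide and kind of clone cannot be told apart, and the difference in response between the kinds of clone contains the same arrays. Spike-in RNAs added to every sample read between 0.02 and 1.00 lower on slide 2 on the log2 scale. The untreated arrays and the treated knockdown arrays were all on slide 1. Colorectal epithelial markers fitted the labeled cell line, since 7 of 10 listed markers, *KRT19* (17.36 to 17.76 on the log2 scale) and *EPCAM* (13.22 to 15.07) among them, were above background on all 8 arrays. *CDH17* and *VIL1* were too dim to be tested, and *LGALS4* was above background on 5 arrays. The limma tests covered the 27286 probes that stood above background in both clones of some condition, and a probe was called at a Benjamini-Hochberg adjusted p-value below 0.05.

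*TET1* was lower in the knockdown clones but was not called. At the brightest of its 3 probes, A_33_P3295550, the log2 signal was 9.70 in CONT1 and 9.75 in CONT2, and 8.65 in TET1-KD1 and 9.41 in TET1-KD2, a difference of -0.69 (SE 0.30, limma adjusted p = 0.630). Probe A_19_P00806490 differed by -0.98 (limma adjusted p = 0.630). The remaining probe, A_23_P322756, was not well above background in the knockdown clones and was at least 1.20-fold lower there. It passed the filter only through the untreated control arrays, so no test of it is given. At each of the 3 probes both knockdown clones lay below both control clones. No probe of the array was called between untreated knockdown and control clones by limma (0%, 0 of 27286), and 2053 probes had an unadjusted p-value below 0.05.

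*UCHL1*, *UCHL3* and *UCHL5* encode ubiquitin C-terminal hydrolases, cysteine proteases that remove ubiquitin from small adducts, precursors and chains. *UCHL1* is abundant in neurons and neuroendocrine cells and is little expressed in most epithelia, and DNA methylation of its promoter CpG island has been described in many carcinomas. *UCHL3* acts on ubiquitin and on NEDD8, is widely expressed, and is closely related to *UCHL1*. *UCHL5* is bound to the proteasome cap and to the INO80 chromatin remodeler. *BAP1*, a nuclear tumor suppressor that removes ubiquitin from histone H2A, completes the family and was examined as well.

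Because 5-aza-dC acts on methylation of CG dinucleotides, the reference sequence ahead of each gene start is shown with every CG in capitals. The windows are the 250 bases before the RefSeq gene start (GRCh38.p14), written 5′ to 3′ on the strand of the gene. They lie at chr4:41256678-41256927 (plus strand) for *UCHL1*, chr13:75549252-75549501 (plus strand) for *UCHL3* and chr1:193060077-193060326 (minus strand) for *UCHL5*. All 3 genes were found in the table.
UCHL1: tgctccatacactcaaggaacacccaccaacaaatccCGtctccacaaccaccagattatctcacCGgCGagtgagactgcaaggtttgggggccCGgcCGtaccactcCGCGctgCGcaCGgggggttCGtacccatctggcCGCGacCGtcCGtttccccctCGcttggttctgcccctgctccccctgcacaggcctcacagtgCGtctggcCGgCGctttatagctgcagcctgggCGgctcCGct
UCHL3: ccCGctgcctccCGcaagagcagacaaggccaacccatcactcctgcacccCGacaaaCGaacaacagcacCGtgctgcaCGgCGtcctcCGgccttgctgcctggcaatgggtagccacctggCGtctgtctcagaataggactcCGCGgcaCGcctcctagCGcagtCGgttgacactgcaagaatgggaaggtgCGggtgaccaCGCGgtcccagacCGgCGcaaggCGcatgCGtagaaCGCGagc
UCHL5: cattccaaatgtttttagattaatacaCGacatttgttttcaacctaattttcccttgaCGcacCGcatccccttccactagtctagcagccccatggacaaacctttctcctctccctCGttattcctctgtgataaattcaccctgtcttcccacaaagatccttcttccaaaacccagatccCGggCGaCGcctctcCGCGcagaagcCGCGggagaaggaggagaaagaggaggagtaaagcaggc

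The *UCHL1* window holds 20 CGs, a G+C content of 64.4% and an observed over expected CG ratio of 0.81. The *UCHL3* window holds 23 CGs (64.8% G+C, ratio 0.89) and the *UCHL5* window 11 (49.6% G+C, ratio 0.77). Of 34943 such windows of all genes, with a median of 11 CGs, 32.4% held at least as many as *UCHL1* and 25.8% at least as many as *UCHL3*. The 2 other annotated starts of *UCHL5*, nearer to its coding part, hold 22 and 20 CGs, and another annotated start of *UCHL3* holds 20. The *UCHL1* window also holds the letters GGGCGG or their complement once, as do 42.5% of all windows on either strand, and TATAA on either strand, as do 19% of all windows, whereas the *UCHL3* and *UCHL5* windows shown hold neither. At the other starts of *UCHL3* and *UCHL5* the windows hold GGGCGG or its complement 2 times each and no TATAA. The windows shown for *UCHL1* and *UCHL3* thus hold a similar number of CGs, as do the windows at the other starts. The methylation of these bases was not analysed here.

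*UCHL1* was not detected in any untreated clone and gave a bright signal in all 4 clones after 5-aza-dC. Its probe A_23_P132956 (NM_004181) lies at chr4:41270340-41270399 on the plus strand of hg19 and has 1 spot on each array. In untreated CONT1, CONT2, TET1-KD1 and TET1-KD2 the background-subtracted intensity was 4.20, 4.03, 4.16 and 5.10, and the spot was not well above background on any of the 4 arrays. The mean pixel intensity before subtraction was 45.6, 46.6, 44.7 and 55.2, against a local background of 36, 35, 35 and 39.5. The 4 subtracted values were surrogates that the scanner software sets for spots near background, so their order carries no information.

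After 5-aza-dC the intensity of CONT1, CONT2, TET1-KD1 and TET1-KD2 was 22997, 24421, 26884 and 23355. None of these spots was saturated, and the coefficient of variation of the pixels within a spot was 5.91% to 6.73%. After the scaling of each array to its 75th percentile, the log2 signals were 14.95, 14.77, 14.52 and 14.38 in the same order. The lowest treated value was 14.38, and the untreated values, all surrogates at background, were at most 2.27. *UCHL1* was chosen for its rise in the control clones, so this gap is a description only.

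In the *TET1* knockdown clones, the log2 signal of *UCHL1* went from 2.09 ± 0.25 to 14.45 ± 0.10 (SD, n = 2 each). Since the untreated signal is only a bound, the difference has no measured baseline, and it was at least 1060-fold when the untreated value was replaced by the lowest signal of any probe above background on the same array. By clone, it was at least 1282-fold in TET1-KD1 and 876-fold in TET1-KD2. All 4 arrays of this comparison lay on slide 1.

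*UCHL1* was 1 of 2063 tested probes that were not above background on either untreated knockdown array and were above background on both treated ones. These probes entered the test only through the arrays on which they were bright, and 1248 of them were called higher, against 5.92% of all tested probes. A call of such a probe is therefore not read here as a result about it.

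**Figure D1:**
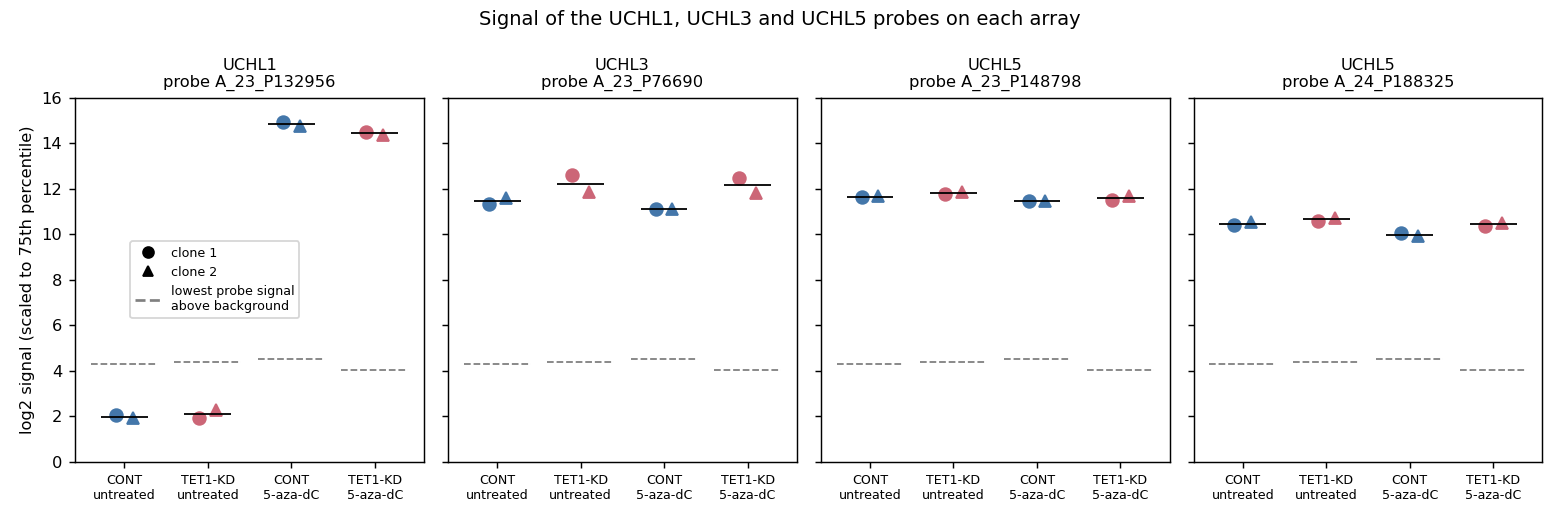
Log2 signal, scaled to the 75th percentile of each array, of the *UCHL1*, *UCHL3* and *UCHL5* probes by condition; circles are clone 1, triangles clone 2, black lines the mean of 2 clones and dashed lines the mean of the lowest probe signal above background on the 2 arrays. *UCHL1* lies below the dashed line on all 4 untreated arrays and between 14.38 and 14.95 on all 4 treated arrays, while the other probes stay between 9.92 and 12.61.

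In the control clones, from which *UCHL1* was chosen, the log2 signal went from 1.99 ± 0.11 to 14.86 ± 0.13 (SD, n = 2 each), a change of 12.87. This is at least 1493-fold, at least 1505-fold in CONT1 and 1480-fold in CONT2.

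In the scaled signals, the order of the treated levels, from the highest, was CONT1, CONT2, TET1-KD1 and TET1-KD2. The 2 knockdown clones lay 0.41 below the control clones on average after 5-aza-dC, with clone-to-clone standard deviations of 0.10 and 0.13. In the same order, the responses by clone were 12.89, 12.86, 12.60 and 12.11, and the mean response was 0.52 smaller in the knockdown clones. These responses start from values at background, so they order the treated signals rather than measure a fold. The difference was not tested, because it contains the control response by which *UCHL1* was chosen. It depends on the normalization, since quantile normalization left a difference in response of 0.16. The order of the treated levels also came with the scaling. Unscaled, TET1-KD1 was the brightest at 26884, followed by CONT2 at 24421, TET1-KD2 at 23355 and CONT1 at 22997. The 75th percentiles were 396 and 476 on the treated control arrays and 624 and 596 on the treated knockdown arrays. A spike-in near the brightness of treated *UCHL1*, at 15.28 on the log2 scale, read 0.28 lower on slide 2 before scaling. That slide held the treated control arrays, and its part in the difference was not tested. In these bulk samples, fewer cells with *UCHL1* transcripts and fewer transcripts per cell cannot be told apart.

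**Figure D2:**
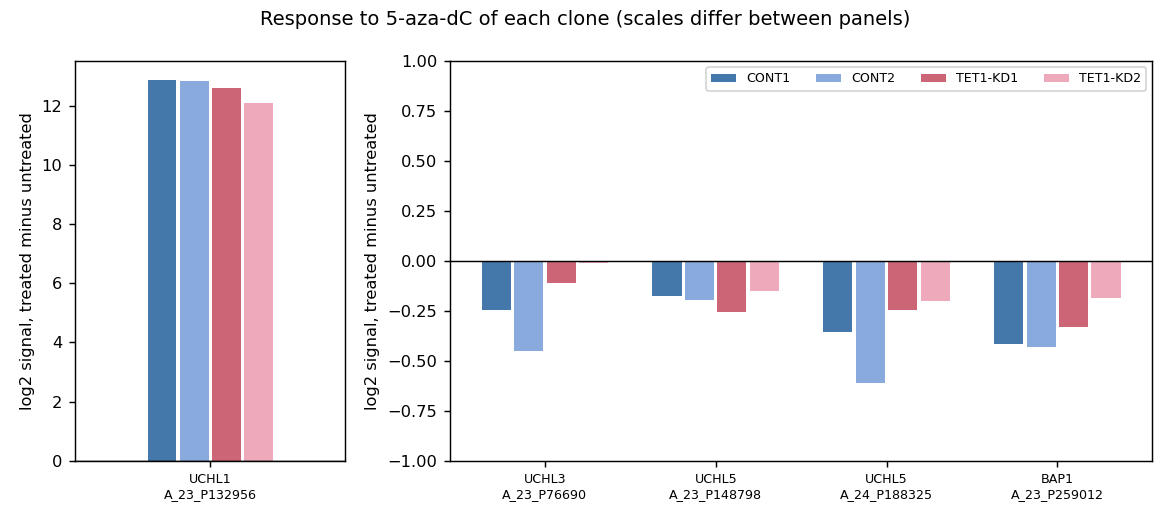
Response to 5-aza-dC of each clone, as treated minus untreated log2 signal, for the *UCHL1* probe (left, axis from 0) and the probes of the rest of the family (right, axis from -1 to 1). Bars are single clones without an error; the *UCHL1* bars, from untreated values at background, reach 12.11 to 12.89, whereas each bar of *UCHL3*, *UCHL5* and *BAP1* lies between -0.61 and -0.01.

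*UCHL3*, the closest relative of *UCHL1*, was expressed in every clone and did not pass the test in any comparison. Its probe A_23_P76690 (NM_006002) spans chr13:76178950-76179910 of hg19, which is 961 bases and wider than the 60 bases of a probe. In untreated cells the log2 signal of CONT1, CONT2, TET1-KD1 and TET1-KD2 was 11.35, 11.59, 12.61 and 11.84. After 5-aza-dC it was 11.10, 11.13, 12.50 and 11.83 in the same order. TET1-KD1 was the highest clone under both treatments, and both knockdown clones lay above both control clones.

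The change of *UCHL3* after 5-aza-dC was -0.06 in the knockdown clones (SE 0.39, 95% confidence interval -1.11 to 0.99, limma adjusted p = 0.946) and -0.35 in the control clones (SE 0.14, limma adjusted p = 0.119). The responses of the 2 kinds of clone differed by 0.29 (95% confidence interval -0.81 to 1.39, limma adjusted p = 0.736), where 5.58% of tested probes were called. Knockdown clones exceeded control clones by 0.76 before treatment (95% confidence interval -0.09 to 1.61, limma adjusted p = 0.630) and by 1.05 after it (95% confidence interval 0.29 to 1.80, limma adjusted p = 0.101), and 5.4% of tested probes were called in the latter comparison. With background correction by normexp, the difference after treatment was called (1.16, limma adjusted p = 0.0379). The treated knockdown arrays were on slide 1 and the treated control arrays on slide 2, so slide and kind of clone cannot be told apart in it. Before any scaling between arrays, a spike-in at 11.13 on the log2 scale read 0.60 lower on slide 2. The part of the slide in this difference was not tested. With the arrays put on the spike-in signals of slide 1 the difference was 1.01 (limma adjusted p = 0.112).

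*UCHL5* was likewise expressed on all arrays. Probe A_23_P148798 (hg19 chr1:192985344-192985403, minus strand) is spotted 10 times per array, with a coefficient of variation between spots of 1.62% to 3.52%. Its log2 signal was 11.63, 11.67, 11.76 and 11.85 in untreated CONT1, CONT2, TET1-KD1 and TET1-KD2, and 11.45, 11.48, 11.51 and 11.70 after 5-aza-dC. Every clone was slightly lower after treatment. The change was -0.20 in the knockdown clones (95% confidence interval -0.71 to 0.31, limma adjusted p = 0.588) and -0.18 in the control clones (95% confidence interval -0.52 to 0.15, limma adjusted p = 0.264), neither of which was called.

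The second *UCHL5* probe, A_24_P188325 (hg19 chr1:192990253-192990312, minus strand), has 1 spot. It read 10.39, 10.53, 10.61 and 10.71 in the untreated clones and 10.04, 9.92, 10.36 and 10.51 in the treated ones. The change was -0.22 in the knockdown clones (limma adjusted p = 0.546) and -0.48 in the control clones (SE 0.13, limma adjusted p = 0.0497), and the latter was called as downregulated, as were 24.5% of all tested probes in the control clones. The probes of *UCHL5* thus disagreed on the call in the control clones. The call was lost when any of the 4 control arrays was left out (adjusted p = 0.0872 to 0.216) and with the clone as a block (adjusted p = 0.0742). It was also lost when the arrays were put on the spike-in signals of slide 1 (-0.23, adjusted p = 0.305), where the spike-in at 11.13 read 0.60 lower on slide 2. Neither probe differed between the kinds of clone in its response (-0.02, adjusted p = 0.967, and 0.26, adjusted p = 0.495, limma).

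*BAP1* (A_23_P259012, hg19 chr3:52435887-52435946, minus strand) read between 9.74 and 10.33 on the 8 arrays. It changed by -0.26 in the knockdown clones (limma adjusted p = 0.587) and by -0.42 in the control clones (limma adjusted p = 0.0544), neither of which was called. No probe of *UCHL3*, *UCHL5* or *BAP1* was called higher in the knockdown clones, where the upper limits of the 95% confidence intervals were 0.99 for *UCHL3*, 0.31 and 0.28 for the *UCHL5* probes and 0.39 for *BAP1*.

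To place the pattern of *UCHL1*, the profile of each tested probe with a gene symbol was centered on its mean over the 8 arrays and compared with that of *UCHL1* by the root mean square difference (20846 probes, median difference 6.36 log2 units). The 8 most similar genes were *XAGE1A* (0.43), *GAGE7* (0.60), *TKTL1* (0.81), *RHOXF2* (0.98), *VCX2* (1.01), *OOEP* (1.24), *ZFP42* (1.34) and *HSPA1A* (1.35). The probes of 5 of these lie on the X chromosome. *XAGE1A*, *GAGE7* and *VCX2* belong to cancer-testis gene families, *RHOXF2* is a homeobox gene expressed in testis, *OOEP* is expressed in oocytes and *ZFP42* is a marker of pluripotent cells. *TKTL1* encodes a transketolase-like protein and *HSPA1A* a heat-inducible HSP70 chaperone.

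The genes *XAGE1A*, *GAGE7*, *RHOXF2*, *VCX2* and *HSPA1A* have near-identical copies, and which copy gave the signal is uncertain. From untreated values at background, the *XAGE1A* probe differed by 13.58, 13.66, 13.04 and 13.29 in CONT1, CONT2, TET1-KD1 and TET1-KD2, which is at least 1959-fold in the knockdown clones. The differences of *GAGE7*, from background as well, were 14.05, 13.46, 12.71 and 13.73. The *TKTL1* probe was above background on all 8 arrays and rose by 11.58, 11.71, 10.10 and 11.17. For the rest, the lower bound of the rise in the knockdown clones ranged from 228-fold (*OOEP*) to 879-fold (*VCX2*). As these genes were chosen for their likeness to *UCHL1*, no test is given. Across the 8 arrays, 275 of the compared probes had a Pearson correlation of at least 0.99 with *UCHL1*, and all of them share the contrast between treated and untreated arrays.

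**Figure D3:**
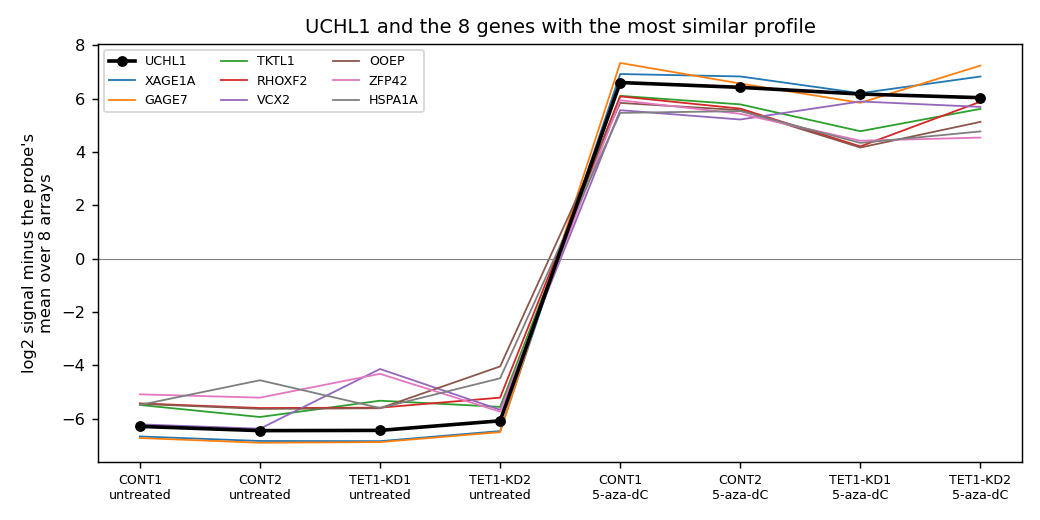
Log2 signal minus the mean of the probe over 8 arrays, for *UCHL1* (black, circles) and the 8 genes with the smallest root mean square difference from it, on the 8 arrays grouped by treatment and clone. The lines separate treated from untreated arrays and differ from *UCHL1* by 0.43 to 1.35; most untreated values are at background and have no order.

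The region around *UCHL1* was then examined for genes that changed with it. Within 1 Mb on either side of the *UCHL1* probe (hg19) lie 27 other probes, of which 13 were tested. In the knockdown clones 2 were called higher and 0 lower by limma, against 5.92% and 0.268% of all tested probes. These were *DCAF4L1*, 715 kb downstream, which was at least 6.58-fold higher after 5-aza-dC, and *BEND4*, 843 kb downstream, which was at least 2.37-fold higher. In untreated cells both were below background on all 4 arrays, so that they passed the filter only through the treated arrays and no test of either is given. The *BEND4* call was also lost under 5 of 15 alternatives, among them normexp, 50 added before the log2 and the methods' t-test. A second *BEND4* probe was above background on 1 array and was not tested.

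The nearest named genes on each side were not called in the knockdown clones. *APBB2*, with its nearest probe at -454 kb, changed by -0.24 in the knockdown clones (limma adjusted p = 0.691), and *LIMCH1*, at 424 kb, by -0.14 (limma adjusted p = 0.890). Their other probes changed by -0.57 (*APBB2*, limma adjusted p = 0.241) and -0.62 (*LIMCH1*, limma adjusted p = 0.413). The *APBB2* probes disagreed in the control clones, at 0.01 for the nearest (limma adjusted p = 0.958) and -0.85 for the other (limma adjusted p = 0.0397). In the control clones, 2 of the 13 probes were called higher, *DCAF4L1* and *BEND4* again, and 6 were called lower, of which 2 were of *LIMCH1*, against 21.7% and 24.5% of all tested probes. The nearest probe of all, XLOC_003934, at -48.2 kb on the opposite strand, was not above background on any array. With the array's spacing, the region from -48.2 kb to 92.8 kb holds no other probe.

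**Figure D4:**
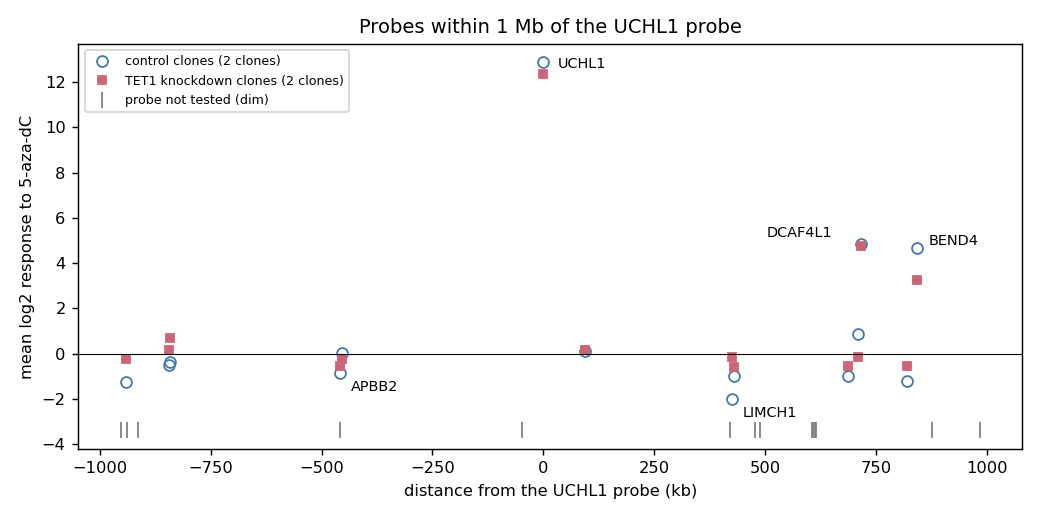
Mean log2 response to 5-aza-dC against the distance from the *UCHL1* probe in kb (negative values are lower coordinates), as open circles for the 2 control clones and filled squares for the 2 *TET1* knockdown clones; grey ticks are probes too dim to test. From untreated values at background, *UCHL1* stands at 12.87 and 12.36 and *DCAF4L1* and *BEND4* at 3.25 to 4.85, and the other probes lie between -2.01 and 0.85.

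Other enzymes that remove ubiquitin were expressed in these cells, and none of the listed ones was called in the knockdown clones, where 5.92% of all tested probes were called higher and 0.268% lower. The shares over all tested probes in the control clones were 21.7% higher and 24.5% lower. Of 53 listed genes of the USP family, the largest family of deubiquitinases, 48 were tested and 0 were called in the knockdown clones by limma (9 at an unadjusted p-value below 0.05), with a median change of -0.04, beside -0.07 over all tested probes. Of the same 48 genes, 11 were called higher and 10 lower in the control clones, near the 21.7% and 24.5% of all tested probes, with a median of 0.02 beside -0.08 over all tested probes. The largest changes in the knockdown clones were 1.09 for *USP2* (limma adjusted p = 0.146) and -0.85 for *USP40* (limma adjusted p = 0.0976). *USP2* was not above background on either untreated knockdown array, so its value starts from background and is no measured fold.

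In the OTU family, 0 of 15 genes were called in the knockdown clones by limma (3 at an unadjusted p-value below 0.05; median -0.03), and 3 were called higher and 1 lower in the control clones, against 21.7% and 24.5% of all tested probes. The largest values in the knockdown clones were 1.79 for *OTUD6A* (limma adjusted p = 0.120) and 1.02 for *OTUD7A* (limma adjusted p = 0.181). Of 11 Josephin and JAMM deubiquitinases, 0 were called in the knockdown clones (1 at an unadjusted p-value below 0.05; median -0.17), where *BRCC3*, a subunit of DNA repair and interferon receptor complexes, gave -0.94 (limma adjusted p = 0.188) and *ATXN3* -0.55 (limma adjusted p = 0.384). In the control clones 3 of these were called higher and 3 lower, against the same 21.7% and 24.5%.

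The substrates and partners of the family were tested in the same way. Among 10 ubiquitin and NEDD8 genes, including the ubiquitin precursors and the activating enzymes, 0 were called (0 at an unadjusted p-value below 0.05; median -0.10), and 1 was called higher in the control clones, against 21.7% of all tested probes. The largest values in the knockdown clones were those of *SENP8*, the NEDD8 protease (-0.46, limma adjusted p = 0.253), and *NAE1*, a subunit of the NEDD8-activating enzyme (-0.38, limma adjusted p = 0.421). Of 18 genes of the proteasome cap, 0 were called in the knockdown clones (1 at an unadjusted p-value below 0.05; median -0.05), and 5 were called higher and 3 lower in the control clones, against 21.7% and 24.5% of all tested probes. *PSMC1* (-0.60, limma adjusted p = 0.208) and *PSMD11* (-0.50, limma adjusted p = 0.291) had the largest values in the knockdown clones.

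Of 13 genes of the INO80 complex, 0 were called in the knockdown clones (0 at an unadjusted p-value below 0.05; median -0.10), with *RUVBL1* at -0.57 (limma adjusted p = 0.260) and *INO80E* at -0.53 (limma adjusted p = 0.267). In the control clones 0 were called higher and 6 lower (median -0.38), against 21.7% and 24.5% of all tested probes. Of 11 tested genes among *BAP1* and its partners, 0 were called in the knockdown clones (0 at an unadjusted p-value below 0.05; median -0.26), with *MBD6* at -0.62 (limma adjusted p = 0.458) and *HCFC1* at -0.48 (limma adjusted p = 0.332), and 2 were called higher and 4 lower in the control clones, against 21.7% and 24.5%.

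The response was called as different between the kinds of clone for 4 genes of these lists, which were named after their values were seen. *USP14*, a deubiquitinase of the proteasome, fell by 2.59 in the control clones and changed by -0.62 in the knockdown clones, a difference of 1.97 (SE 0.28, limma adjusted p = 0.0195). Its log2 signal was 4.98 in treated CONT1 and 4.60 in treated CONT2, where it was not above background. The fall in CONT2 thus ends at background and is no measured fold. *OTUB2* fell by 2.16 in the control clones and changed by 0.03 in the knockdown clones (difference 2.20, limma adjusted p = 0.0391). *USP36*, a nucleolar deubiquitinase, and *PSMD4*, a ubiquitin receptor of the proteasome, rose by 0.97 and 1.08 in the control clones and changed by -0.12 and -0.10 in the knockdown clones (differences -1.09 and -1.19, limma adjusted p = 0.0471 and 0.0403). Over all tested probes 5.58% were called in this comparison. The calls of all 4 were lost when the arrays were put on the spike-in signals of slide 1 (adjusted p = 0.0551 to 0.0986). Over all alternatives the call was lost in 7 of 17 for *USP14*, 13 of 18 for *OTUB2*, 13 of 18 for *USP36* and 12 of 18 for *PSMD4*, and slide and treatment cannot be told apart in the control clones.

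Since *UCHL1* is a marker of neurons and neuroendocrine cells, genes of these cells were examined as well. Of 13 listed genes, 6 were tested, and the other 7, *SYP*, *CHGB*, *NCAM1* and *INSM1* among them, were too dim. *CHGA*, which encodes the granule protein chromogranin A, was the only one called in the knockdown clones. Its log2 signal was 3.76, 2.86, 1.93 and 2.29 in untreated CONT1, CONT2, TET1-KD1 and TET1-KD2, below background on all 4 arrays, and 7.59, 7.18, 6.12 and 7.09 after 5-aza-dC. It was at least 4.62-fold higher after 5-aza-dC in the knockdown clones, and it was called higher in the control clones too. Its probe passed the filter only through the same 4 treated arrays as *UCHL1*, so no test is given. With 50 added before the log2, the change was 1.46 and was not called.

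*STMN2*, a microtubule regulator of neurons, was also below background in untreated cells and read 10.37, 7.05, 6.03 and 8.59 after 5-aza-dC in CONT1, CONT2, TET1-KD1 and TET1-KD2. It was at least 7.50-fold higher after 5-aza-dC in the knockdown clones and at least 21.0-fold higher in the control clones. Its probe too passed the filter only through treated arrays, so no test is given. Its call in the control clones and the lack of one in the knockdown clones are not read as a difference. *TUBB3* and *ENO2* were above background on all arrays and were called higher in the control clones, whereas *TUBB3* gave 0.71 in the knockdown clones (limma adjusted p = 0.468). *SNAP25* and *SYT1* were not called in either. The median change of the 6 genes was 0.52 in the knockdown clones and 1.23 in the control clones, beside -0.07 and -0.08 over all tested probes. Of the 6, 1 was called higher in the knockdown clones and 4 in the control clones, against 5.92% and 21.7% of all tested probes. *CHGA* and *STMN2* are among the 6 and entered only through treated arrays, so these counts and medians are not read as a result about the list. Among the epithelial markers, 0 of 8 tested genes were called in the knockdown clones by limma (2 at an unadjusted p-value below 0.05). The largest values were those of *LGALS4* (2.31, limma adjusted p = 0.109) and *EPCAM* (-0.62, limma adjusted p = 0.290). *LGALS4* was not above background on either untreated knockdown array, so its value starts from background. In the control clones 1 was called higher and 2 lower, against 21.7% and 24.5% of all tested probes.

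**Figure D5:**
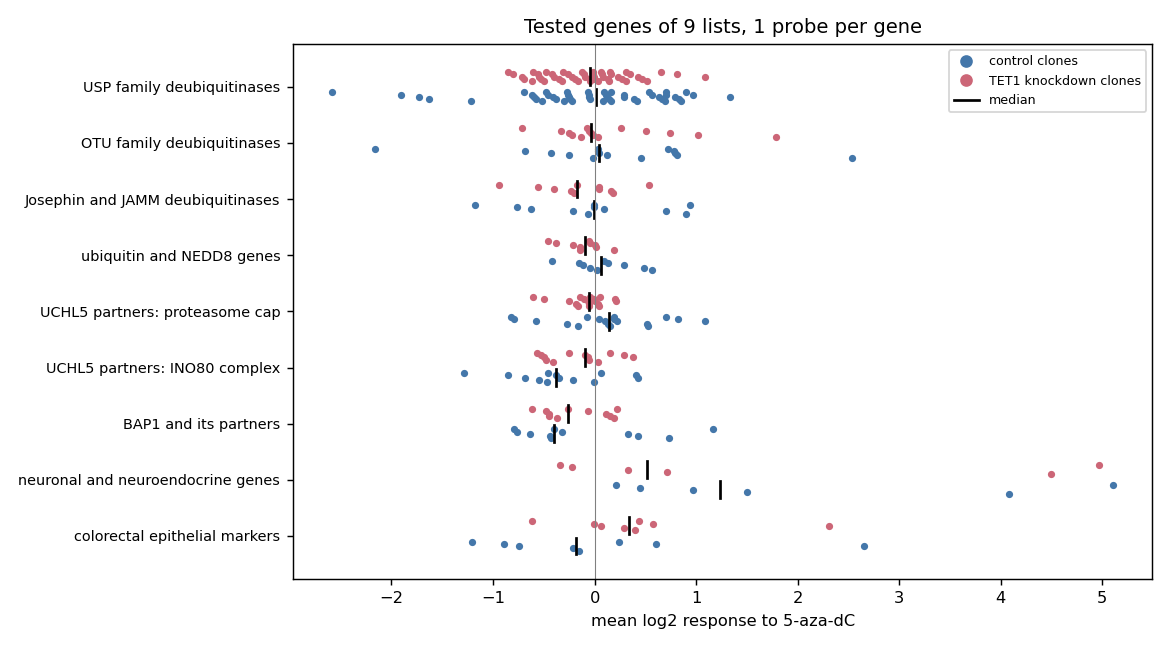
Mean log2 response to 5-aza-dC of each tested gene of 9 lists, with 1 probe per gene, for control clones and *TET1* knockdown clones; black bars are medians over the genes of a list. Most genes of the ubiquitin lists lie between -1 and 1, and the values above 4, from untreated values at background, are those of *CHGA* and *STMN2*; *UCHL1*, *UCHL3* and *UCHL5* are not among the genes plotted.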

How the data were processed

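Gene expression was measured on 8 one-color SurePrint G3 Human GE arrays. The authors deposited the scanner output with Feature Extraction (10.7.3.1 in the file headers, 10.7 per the labels), whose spot intensity values had been background-subtracted but not normalized between arrays. The accompanying value table holds the same intensities rounded. The paper states t tests with Benjamini-Hochberg correction in GeneSpring GX.

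The processed intensity of each non-control spot was divided by the 75th percentile of its array and multiplied by the geometric mean of these percentiles, set to at least 1 and log2-transformed. Spots flagged as non-uniform or outliers were dropped, and spots of a probe were averaged. A probe was above background when at least 0.5 of its spots were, and 29490 to 34276 of 58717 spots per array were. Groups followed the array titles. limma 3.58.1 in R 4.3.3 was fitted to the arrays compared, or to all 8 for the difference in response, and the functions were tested on simulated data. The log2 floor makes a fold from background arbitrary. An untreated signal at background was therefore replaced by the lowest signal above background on its array to give a lower bound. The *TET1* probe A_23_P322756 passed the filter only through the untreated control arrays, and no p-value is given for it. No p-value is given for *UCHL1*, *DCAF4L1*, *BEND4*, *CHGA* and *STMN2*, which passed the filter only through treated arrays. Where a call of one of these genes is mentioned, it is not read as a result about it. Precision is limited by 2 clones per condition.

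The genes and lists were chosen with earlier results of these data known. Named genes were *UCHL1*, *UCHL3*, *UCHL5* and *TET1*, the 8 most similar profiles, from each list the 3 called genes with the largest change in the knockdown clones (the 2 largest where none was called), and from the neighborhood the called genes and the nearest named gene on each side. *BAP1* was added. Lists used the brightest tested probe of a gene, and 1 gene of the lists is not reported here. The same clone was sampled with and without the drug, per the labels, and deviations from the group means correlated at r = 0.198 (control clones) and r = 0.476 (knockdown clones). Alternatives were another background correction, quantile normalization, other filters and offsets, flagged spots kept, the deposited value table, spike-in scaling, ordinary variances, all arrays or slide 1 in 1 fit, the clone as a block and leaving out each array. Promoter sequences are from RefSeq (GRCh38.p14), and positions of probes were read from the files (hg19). Plots were drawn with matplotlib 3.10.9. Methylation data were not analysed here.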

Additional observations from a re-analysis of the deposited data

Results flagged for a closer look

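In limma's interaction test, 4 listed genes were called as responding differently in knockdown and control clones, with 2 clones of each kind. Of 48 tested USP genes 1 was called higher and 1 lower. Of 15 OTU genes 1 was called, and of 18 proteasome cap genes 1. No gene of the other lists was called, and 5.58% of all tested probes were, so the count does not set these lists apart. The calls were lost in 7 of 17 alternatives for *USP14*, 13 of 18 for *OTUB2*, 13 of 18 for *USP36* and 12 of 18 for *PSMD4*, and all 4 were lost with spike-in scaling. *USP14* differed by 1.97 (knockdown minus control clones), *OTUB2* by 2.20, *USP36* by -1.09 and *PSMD4* by -1.19. The signal of *USP14* in treated CONT2 was at background. All treated control arrays lay on slide 2, so the kind of clone, the treatment and the slide cannot be told apart in these differences.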

How the results depend on the processing

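Called values in the comparisons below moved with the processing as follows, with the cause not tested unless stated. The fitted *UCHL1* change in the knockdown clones starts from untreated values at background and is no test of the gene. It was 8.69 to 12.55 on the log2 scale under 14 of 15 alternatives and 12.36 with the methods' t-test. Whether it passed the threshold is not read as a result, because the probe passed the filter only through the treated arrays. The described *UCHL1* response of the control clones was 9.23 with normexp, 9.11 with 50 added before the log2 (both raise the untreated floor) and 12.71 with quantile normalization. The difference in response was -0.16 with quantile normalization, and -0.70 to -0.34 when an array was left out. *UCHL1* gave no value among probes above background on all 8 arrays.

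The *UCHL3* change in the knockdown clones, not called at -0.06, was 0.022 with normexp, 0.085 with quantile normalization and -0.44 to 0.32 without each array, and its difference in response ranged from -0.093 to 0.67. The difference in response of *UCHL5* at A_23_P148798, -0.02, was 0.019 with normexp, 0.13 with quantile normalization and -0.11 to 0.075 without each array.

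In the knockdown clones 1614 probes were called higher and 73 lower. The number called higher was 763 with normexp, 766 with 50 added, 65 among probes above background on all arrays, 2429 with all 8 arrays in 1 fit, 0 with the methods' t-test and 866 to 1750 without each array. The number called lower was 147 with quantile normalization, 45 without a filter, 0 among probes above background on all arrays, 789 with all 8 arrays, 394 with slide 1, 227 with the clone as a replicate block, 0 with the methods' t-test and 5 to 48 without each array. In the control clones 5908 and 6690 were called higher and lower. The methods' t-test called 2151 and 2011, spike-in scaling left 3632 lower, and the ranges without each array were 2843 to 4761 and 1919 to 5654.

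The difference in response was called for 1522 probes, for 829 with normexp, 954 with spike-in scaling, 715 without a filter and 47 (without untreated CONT1) to 1264 without each array. Treated knockdown and control clones differed at 1473 probes, at 2423 with normexp, 0 without a filter, 5121 with all 8 arrays, 4 with the methods' t-test and 0 without any 1 of the arrays. Untreated, 0 probes were called, 4 with all 8 arrays and 1 with the methods' t-test. When an array was left out, the lone array of its condition was assumed to vary like the others. With the replicate block, the calls of *UCHL5* A_24_P188325 in the control clones and of the *USP36* difference were lost. Slide could not be fitted as a block where treated control arrays enter.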
